A study of Mus musculus with 4 samples.

Results

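Olfactory and vomeronasal receptor genes that gave reads in mouse morulae were examined, in embryos treated with control siRNA and in embryos treated with siRNA against Pwp1. The genes were those whose symbol begins with Olfr or Vmn and whose RSEM expected count was 10 or more in at least 1 of the 4 libraries. An expected count is the estimated number of reads assigned to a gene, which need not be whole because reads matching several genes are divided among them. The rule kept 67 of the 1462 Olfr and Vmn genes listed, 4.58% of them, out of 24411 genes in all. These were 48 of 1125 Olfr genes, 9 of 211 Vmn1r genes and 10 of 126 Vmn2r genes. The choice was made from the counts of these same libraries, so the levels and group differences of the 67 members describe what was chosen and were not used as evidence of a change.

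Olfactory receptors are G protein-coupled receptors of the olfactory epithelium, and the Vmn1r and Vmn2r families are their counterparts in the vomeronasal organ, where they detect pheromones and other social cues. An olfactory sensory neuron normally transcribes a single allele of a single olfactory receptor gene, while the remaining genes of the family lie in clusters packed as constitutive heterochromatin. Preimplantation embryos have no sensory neurons.

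Embryos of ICR mice, an outbred stock, were produced by in vitro fertilization. All were electroporated at the 1-cell stage, 3 hours after insemination (hpi), with control siRNA (siControl) or siRNA against Pwp1 (siPwp1), and then grown to 72 hpi in KSOM with added bovine serum albumin. The product of Pwp1, which has WD repeats, is known to act on chromatin and on transcription of ribosomal RNA genes. Each library was made from the polyadenylated RNA of 10 pooled morulae, with 2 libraries per group, and nothing in the labels says that replicates came from separate fertilizations, so a p-value here measures the spread between these libraries alone, which may be technical. A pool of 10 embryos cannot show how many embryos or blastomeres carried a transcript, and fewer cells with a transcript cannot be told apart from less RNA per cell.

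The libraries held 28981358 to 48765229 expected counts. Pwp1, the targeted gene, had levels of 214 and 357 CPM (counts-per-million, from expected counts and the library total) in the siControl libraries, against 38.2 and 36.9 CPM in the siPwp1 libraries. All 11 morula and pluripotency markers examined were detected, with a summed level, mostly Dppa2 and Dppa4, of 2807 to 3282 CPM in siControl and 2853 to 3400 CPM in siPwp1. Cdx2 and Gata3, factors of the trophectoderm lineage, and Sox2 were lower in replicate 2 than in replicate 1 of both groups. Gata3 had 126 and 22.2 CPM in siControl, against 49.9 and 16.8 CPM in siPwp1. A count of 3, taken here as the detection floor, corresponds to between 0.0615 and 0.104 CPM, and a count of 10 to between 0.205 and 0.345 CPM. These limits cover counting error only.

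Receptor genes lie in clusters of close relatives, and Olfr376 and Olfr995, the 2 members of highest mean level, each lie beside a member of similar sequence. The stretches below, of 150 coding bases each, are shown because reads had to be told apart by the bases at which these neighbours differ. They run 5′ to 3′ on the coding strand and come from GENCODE M21 transcripts on GRCm38, and capitals mark the bases that differ within a pair. The Olfr376 stretch is chr11:73374811-73374960 on the plus strand and the Olfr20 stretch is chr11:73353806-73353955 on the plus strand. The Olfr995 stretch is chr2:85438947-85439096 on the minus strand and the Olfr994 stretch is chr2:85430618-85430767 on the minus strand.
Olfr376: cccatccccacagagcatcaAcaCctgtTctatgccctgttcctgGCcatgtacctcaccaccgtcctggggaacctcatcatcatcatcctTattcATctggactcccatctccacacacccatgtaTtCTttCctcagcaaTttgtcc
Olfr20: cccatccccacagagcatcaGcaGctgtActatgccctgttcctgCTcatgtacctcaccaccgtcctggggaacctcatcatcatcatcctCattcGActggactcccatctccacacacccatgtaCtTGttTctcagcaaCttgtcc
Olfr995: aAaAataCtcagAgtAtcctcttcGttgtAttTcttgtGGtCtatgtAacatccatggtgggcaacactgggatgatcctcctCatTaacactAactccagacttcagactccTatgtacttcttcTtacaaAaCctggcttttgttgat
Olfr994: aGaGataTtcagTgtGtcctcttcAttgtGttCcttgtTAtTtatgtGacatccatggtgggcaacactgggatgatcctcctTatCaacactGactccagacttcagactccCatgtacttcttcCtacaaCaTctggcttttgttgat
Olfr376 and Olfr20 differed at 13 of these 150 bases and were 94.1% identical over 938 aligned coding bases. Olfr995 and Olfr994 differed at 19 of the 150 bases and were 88.5% identical over 942. In these 4 genes the single count that was not whole was that of Olfr995 in siPwp1 replicate 2. Olfr994 had whole counts in every library. Olfr993, another receptor gene within 100 kb of Olfr995, had 8.14 counts in siPwp1 replicate 2. With which gene Olfr995 shared reads was not tested. Over all members, 6 had a count that was not whole, the sign that reads were shared with another gene.

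Receptor genes gave very little RNA in every library, and the summed level of the members was higher in both siPwp1 libraries than in both siControl libraries. The 67 members together reached 8.16 CPM in siControl replicate 1 and 15.7 CPM in siControl replicate 2. The sum reached 49.5 CPM in siPwp1 replicate 1 and 72.4 CPM in siPwp1 replicate 2. The group means were 11.9 ± 5.31 and 60.9 ± 16.2 CPM (SD, n = 2 each), a ratio of 5.12. In the highest library this was 0.00724% of all counts. In TPM, which divides each count by gene length before scaling to a common total, the sums were 6.92, 17.7, 55.7 and 87.5 in the same order of libraries, a ratio of 5.82. No p is given for these sums, since the members were chosen by their counts, and an exact two-sided permutation of 2 against 2 libraries cannot go below p = 0.333.

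The higher sum rested mostly on olfactory receptors, with smaller sums for both vomeronasal families. Summed levels of the 48 Olfr members were 4.74 and 13.2 CPM in siControl, against 43.2 and 60.1 CPM in siPwp1. The 10 Vmn2r members summed to 2.48 and 1.07 CPM in siControl, against 4.61 and 7.18 CPM in siPwp1. The 9 Vmn1r members summed to 0.932 and 1.40 CPM in siControl, against 1.63 and 5.11 CPM in siPwp1, so that siPwp1 replicate 1 lay close to siControl replicate 2. The 1395 receptor genes that stayed under 10 counts did not separate the groups. They summed to 13.3 and 4.96 CPM in siControl and to 8.68 and 14.4 CPM in siPwp1, a ratio of group means of 1.27. Any receptor gene that reached 10 counts in a library became a member, so the rule itself limited these sums. They are therefore no comparison for the members.

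The number of receptor genes reaching 10 counts was also larger in siPwp1. It was 9 in siControl replicate 1, 12 in siControl replicate 2, 42 in siPwp1 replicate 1 and 34 in siPwp1 replicate 2. A fixed count is a lower level in a deeper library, so the counts were also scaled to the smallest library. The scaled numbers were 9, 8, 17 and 33, in the same order. Scaling lowered the number most in siPwp1 replicate 1, the deepest library, and the groups still did not overlap. Over all genes in the files the scaled numbers were 12610 and 12445 in siControl and 13114 and 12996 in siPwp1, so the siPwp1 libraries also detected more genes of other kinds.

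**Figure D1:**
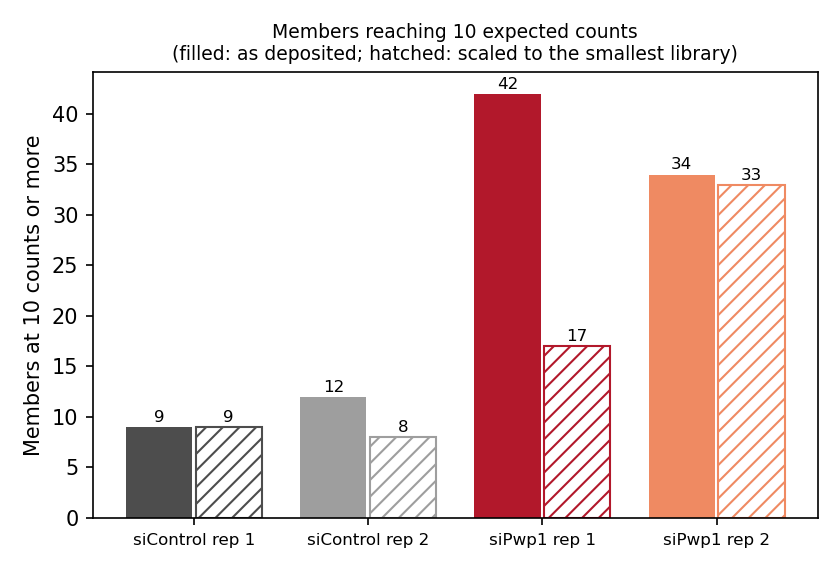
Number of members at 10 expected counts or more in each library (vertical axis), as deposited (filled bars) and after scaling all counts to the smallest library (hatched bars). The siPwp1 libraries stood at 42 and 34 as deposited and at 17 and 33 after scaling, against 9 to 12 and 8 to 9 in siControl.

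Detection of the members was patchy. Of the 67, 50 reached 10 counts only in siPwp1 libraries, 8 only in siControl libraries and 9 in both groups. Over all 15321 genes with 10 counts in at least 1 library, 9.44% reached it only in siPwp1 and 3.86% only in siControl. Exactly 1 library carried 47 of the members past 10 counts, against 11.2% of those 15321 genes. That library was siPwp1 replicate 1 for 24 members, siPwp1 replicate 2 for 15, and each siControl library for 4. A comparison with other genes at matched level was not made. Of the members, 29 were above 0 in a single library, and 40 never reached 20 counts.

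The rest of the receptor family gave few or no reads. Of the 1462 genes, 998 (68.3%) were listed at 0 in all 4 libraries, against 4788 of 22949 genes of other kinds (20.9%). Just inside the limit of 10 counts lay 11 genes with a highest count of exactly 10, and just outside lay 13 with a highest count of 9. Olfr1018 and Olfr1030 had 10 counts in siPwp1 replicate 1 and 0 elsewhere, and Olfr1057 had 10 counts in siControl replicate 1 and 0 elsewhere. Outside the limit, Olfr1145 had 9 counts in siPwp1 replicate 2, Olfr1173 9 counts in siControl replicate 2 and Olfr1238 9 counts in siPwp1 replicate 1, each with 0 in the other libraries. Genes on either side of the limit therefore differed by a single count.

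The summed signal was concentrated in few genes, in siControl as well as in siPwp1. Olfr376 alone held 37.3% of the members' counts in siControl replicate 2, 37.4% in siPwp1 replicate 1 and 41.2% in siPwp1 replicate 2. In siControl replicate 1 the highest gene was the pseudogene Olfr1372-ps1, with 24.5%. The 3 highest members held 45.3% and 69.9% in siControl and 64.7% and 59.9% in siPwp1, so the siControl libraries lay on both sides of the siPwp1 libraries. They were Olfr1372-ps1, Vmn2r29 and Vmn1r32 in siControl replicate 1, and Olfr376, Olfr1372-ps1 and Vmn2r-ps11 in siControl replicate 2. Both siPwp1 libraries had the same leading genes, Olfr376, Olfr995 and Vmn2r94. To reach 90% of the counts took 16 and 12 members in siControl and 25 and 20 in siPwp1.

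**Figure D2:**
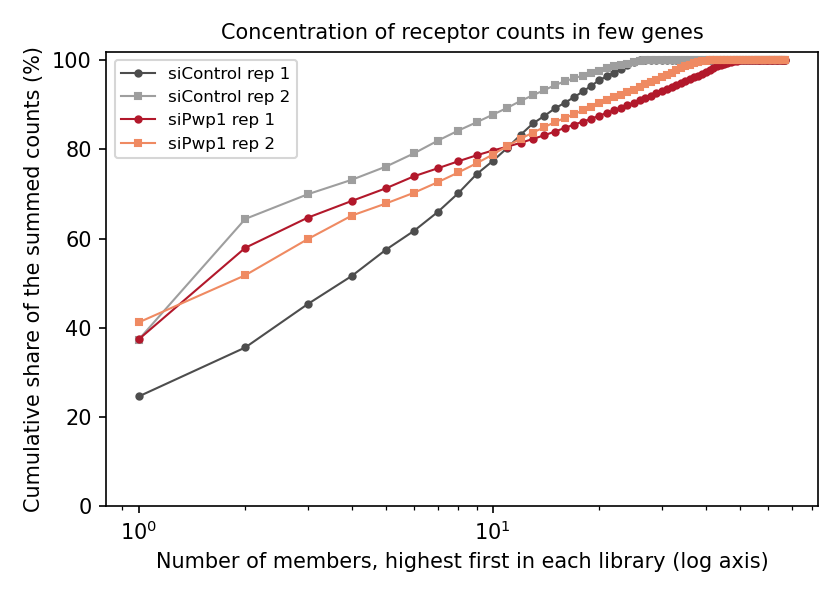
Cumulative share of the members' summed counts (vertical axis, percent) against the number of members added, highest first within each library (horizontal axis, log scale), with 1 line per library. In 3 libraries 2 genes held over 50% of the counts, and siControl replicate 1 needed 4.

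Without Olfr376 the members summed to 7.64 and 9.83 CPM in siControl and to 30.99 and 42.6 CPM in siPwp1, a ratio of 4.21. Without both Olfr376 and Olfr995, a choice made after the data were seen, the sums were 7.30 and 9.58 CPM against 20.8 and 34.9 CPM, a ratio of 3.30. The sums of both siPwp1 libraries stayed above those of both siControl libraries without the leading pair. The remaining members were also chosen by their counts in these libraries, so this order describes the choice and supports nothing.

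Olfr376 was the most abundant receptor gene of the set by mean TPM. It lies at chr11:73371246-73377836 on the plus strand of GRCm38, with up to 3 exons and no exon overlapping another gene in GENCODE M21. It had 15 counts (0.54 TPM) in siControl replicate 1 and 263 counts (7.57 TPM) in siControl replicate 2. The siPwp1 replicates had 901 counts (19.1 TPM) and 905 counts (33.8 TPM). Both siPwp1 libraries lay above both siControl libraries, but the siControl libraries differed from each other more than siControl replicate 2 differed from siPwp1 replicate 1 on a log scale. In edgeR the log2 fold change, siPwp1 minus siControl, was 2.86 (SE 0.98, unadjusted p = 0.0224, adjusted p = 0.9998).

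Olfr995 separated the groups more evenly. It lies at chr2:85437528-85443639 on the minus strand. Counts were 10 and 11 in siControl (0.50 and 0.39 TPM) and 496 and 232.86 in siPwp1 (14.5 and 12.0 TPM). The replicates of each group lay close together and the groups far apart. The mean level in siControl was 0.295 ± 0.0711 CPM and that in siPwp1 was 8.92 ± 1.77 CPM (SD, n = 2 each), with an edgeR log2 fold change of 4.88 (SE 0.58). The edgeR adjusted p was 0.22, above the threshold of 0.05, and the adjusted p of DESeq2 was 1.03e-10.

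Vmn2r94, a vomeronasal receptor of the Vmn2r family at chr17:18241122-18277756 on the minus strand, also lay higher in both siPwp1 libraries. It had 6 and 4 counts in siControl (0.09 and 0.04 TPM) and 163 and 178 in siPwp1 (1.45 and 2.76 TPM). The groups did not overlap, while the replicates of each group differed in level, at 0.207 and 0.0889 CPM in siControl, against 3.34 and 5.86 CPM in siPwp1. The edgeR log2 fold change was 4.94 (SE 0.83, adjusted p = 0.689), and the DESeq2 adjusted p was 3.15e-05. Vmn2r94 and Olfr995 were the only members that DESeq2 called.

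Olfr329-ps and Olfr815 ranked just above Vmn2r94 by mean TPM. Olfr329-ps had 0 and 2 counts in siControl, 7.91 in siPwp1 replicate 1 and 116.66 in siPwp1 replicate 2, so 94.9% of its summed CPM came from 1 library. The level of Olfr329-ps is uncertain, since its siPwp1 counts were not whole and it was 96.2% identical to its neighbour Olfr325. Olfr815, an olfactory receptor gene on chromosome 10, had 3 and 16 counts in siControl and 69 and 48 in siPwp1. Its edgeR log2 fold change was 2.62 (SE 1.08, unadjusted p = 0.0475). Both genes were higher in both siPwp1 libraries, Olfr815 with replicates that lay close together and Olfr329-ps with replicates that did not.

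Several olfactory receptor genes of lower level followed the same order. Olfr787 had 0 and 4 counts in siControl and 43 and 53 in siPwp1, a log2 fold change of 4.63 (SE 1.55). Olfr118 had 4 and 2 counts in siControl and 38 and 43 in siPwp1, a log2 fold change of 3.56 (SE 1.32). Olfr881 had 0 and 8 counts in siControl and 20 and 60 in siPwp1, a log2 fold change of 3.58 (SE 1.70). In siPwp1 the level per length was higher in replicate 2 for each: 1.28 and 2.76 TPM for Olfr787, 1.09 and 2.15 TPM for Olfr118, and 0.59 and 3.08 TPM for Olfr881. All 3 had both siPwp1 libraries above both siControl libraries. Their fold changes depended on single libraries, since without siControl replicate 2 that of Olfr787 was 8.57 and that of Olfr881 8.43, and without siPwp1 replicate 2 that of Olfr881 was 2.02, on the log2 scale.

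A further set was listed at 0 in both siControl libraries. Of these 31 members, 8 were above 0 in both siPwp1 libraries. A gene at 0 in both siControl libraries could be chosen only by reaching 10 counts in a siPwp1 library. The numbers therefore describe the rule, and the share of all genes with this pattern is not given here. For members at 0 in siControl only a lower bound can be given, against a floor of 3 counts in each siControl library. Olfr450 had 21 and 36 counts in siPwp1, at least 9.50-fold higher in mean CPM. Olfr20, the neighbour of Olfr376, had 13 and 18 counts, at least 5.05-fold higher. Vmn1r42 had 13 counts in each siPwp1 library, at least 4.08-fold higher, and Vmn1r62 had 12 and 30, at least 7.25-fold higher. These 4 genes included 2 of the Vmn1r family, whose products are vomeronasal receptors of the apical neurons.

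**Figure D3:**
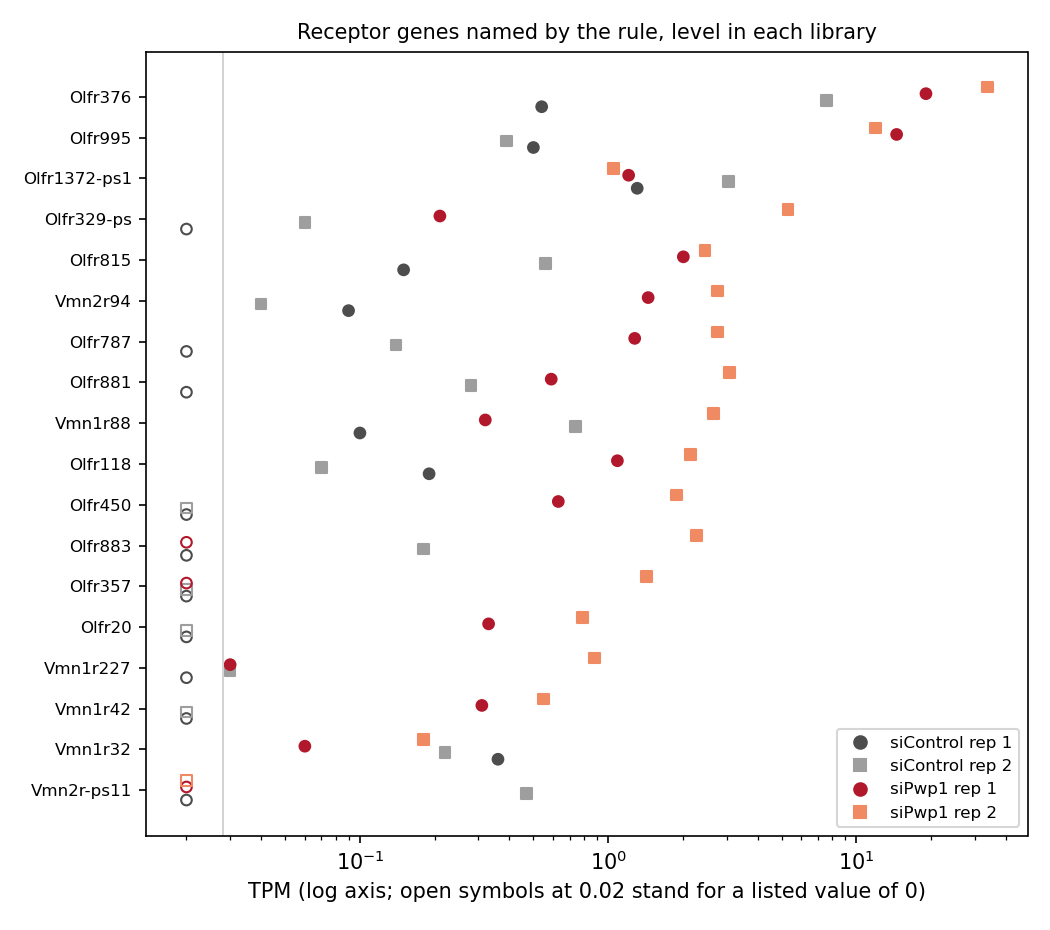
Level in each library of the members named by the rule for level, group difference or a single carrying library (horizontal axis, TPM, log scale), with genes on the vertical axis in order of mean TPM and 1 symbol per library; open symbols at 0.02 stand for a listed value of 0. Olfr376 reached 33.8 TPM and Olfr995 14.5 TPM, and every other receptor gene drawn stayed below both of those values.

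A few members went the other way or followed no group. Olfr1372-ps1, a transcribed pseudogene on chromosome 11 and the third member by mean TPM, had 58 and 191 counts in siControl (1.31 and 3.06 TPM) and 91 and 45 in siPwp1 (1.21 and 1.05 TPM). Vmn1r32 had 23 and 20 counts in siControl and 6 and 11 in siPwp1. These were the only 2 members lower in both siPwp1 libraries by CPM, and neither passed the edgeR test, with log2 fold changes of −0.95 (SE 0.66) and −1.38 (SE 1.32). Vmn1r88 had 2 and 21 counts in siControl and 11 and 52 in siPwp1, so its groups overlapped. Its edgeR log2 fold change of 1.78 became −0.34 without siPwp1 replicate 2.

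Members carried by a single library were found in both groups. Vmn2r-ps11 had 39 counts in siControl replicate 2 and 0 in the other 3 libraries. Olfr357 had 27 counts in siPwp1 replicate 2 alone. Vmn1r227 had 1 count in siControl replicate 2, 1 in siPwp1 replicate 1 and 19 in siPwp1 replicate 2, and Olfr883 had 5 in siControl replicate 2 and 43 in siPwp1 replicate 2. For 52 of the 67 members the gap between the replicates of a group was larger than the gap between the group means. The share of all genes with such a gap was not computed, so this number is not particular to receptor genes. Of the members, 21 were higher in both siPwp1 libraries than in both siControl libraries, 2 were lower and 44 overlapped. Over all 15321 genes with 10 counts in at least 1 library, 16.9% were higher and 11.5% lower in this sense.

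For the test across genes, 21 members passed the filter on low counts and 46 did not. A member could pass through the group where it was high, so the counts that follow describe the choice and support nothing. No member passed the edgeR test at an adjusted p of 0.05, and neither did any of the 13585 genes tested (0% higher and 0% lower). At an unadjusted p under 0.05, 10 members were higher and 0 lower, against 1.84% and 0.824% of all genes tested. DESeq2 called 2 members higher and 0 lower at its adjusted threshold, against 0.309% and 0.0147% of all genes. The edgeR log2 fold change was positive for 18 of the 21 and negative for 3. Its median over the 21 was 2.86, or 2.18 with the 4 genes at 0 in siControl set to their lower bounds, and over all genes tested it was −0.00104.

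**Figure D4:**
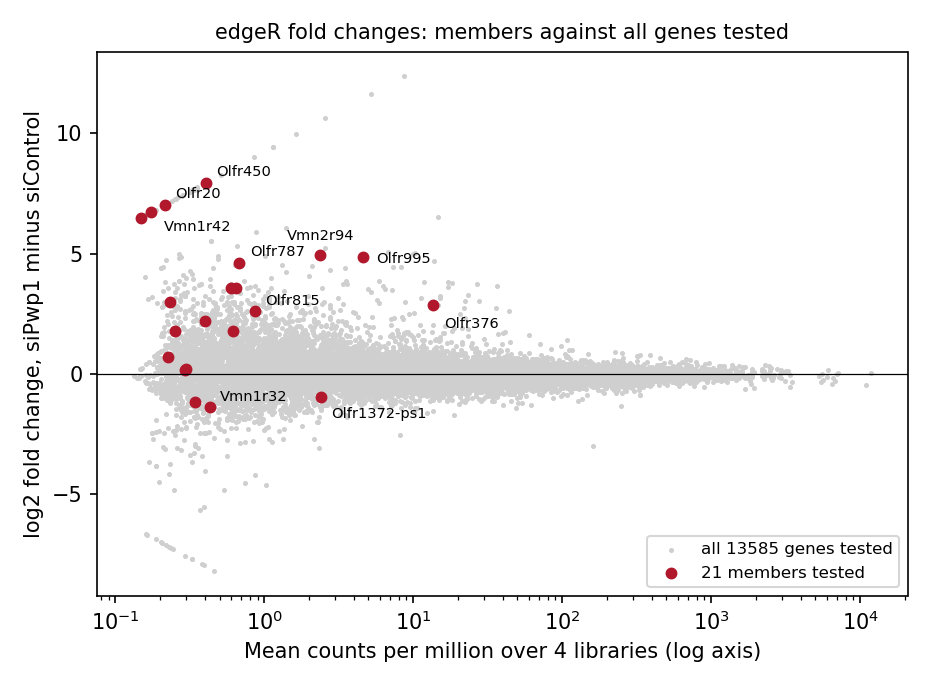
edgeR log2 fold change, siPwp1 minus siControl (vertical axis), against mean CPM over the 4 libraries (horizontal axis, log scale), for all 13585 genes tested (grey) and the 21 members tested (red). The fitted values of Olfr450, Olfr20 and Vmn1r42 at the upper left rest on counts of 0 in siControl and are not bounds.

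The members were spread over 14 chromosomes. Chromosome 2 held 15 of its 287 receptor genes as members, chromosome 7 held 12 of 393 and chromosome 11 held 7 of 85. Another member lay within 100 kb of 20 of the 67 (29.9%), and a member lay within 100 kb of 266 of 1381 other receptor genes (19.3%). Of those 266 genes, 188 (70.7%) were at 0 in all 4 libraries, close to the 800 of 1115 (71.7%) among receptor genes farther from any member.

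Receptor genes beside Olfr376 and Olfr995 had far fewer counts than these 2 genes in siPwp1. Olfr20 lies 15295 bases from Olfr376, and the other receptor genes within 100 kb of Olfr376 had at most 5 counts in any library. Olfr994 lies 1077 bases from Olfr995 and had 7 and 2 counts in siControl and 32 and 20 in siPwp1. The 4 remaining receptor genes within 100 kb of Olfr995 had at most 8.14 counts. Near Olfr787 on chromosome 10, Olfr788, Olfr791 and Olfr792 had 14, 16 and 16 counts in siPwp1 replicate 1 and 0 in the other 3 libraries. Near Olfr329-ps, Olfr325 had 14.09 and 9.34 counts in the siPwp1 replicates and 0 in siControl, and Olfr330 had 7 in siControl replicate 1 and 25 in siPwp1 replicate 2. Olfr325 and Olfr329-ps were 96.2% identical and both had counts that were not whole in siPwp1. Their separate levels are therefore uncertain. Silent genes lay between the detected genes in the latter 2 clusters.

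**Figure D5:**
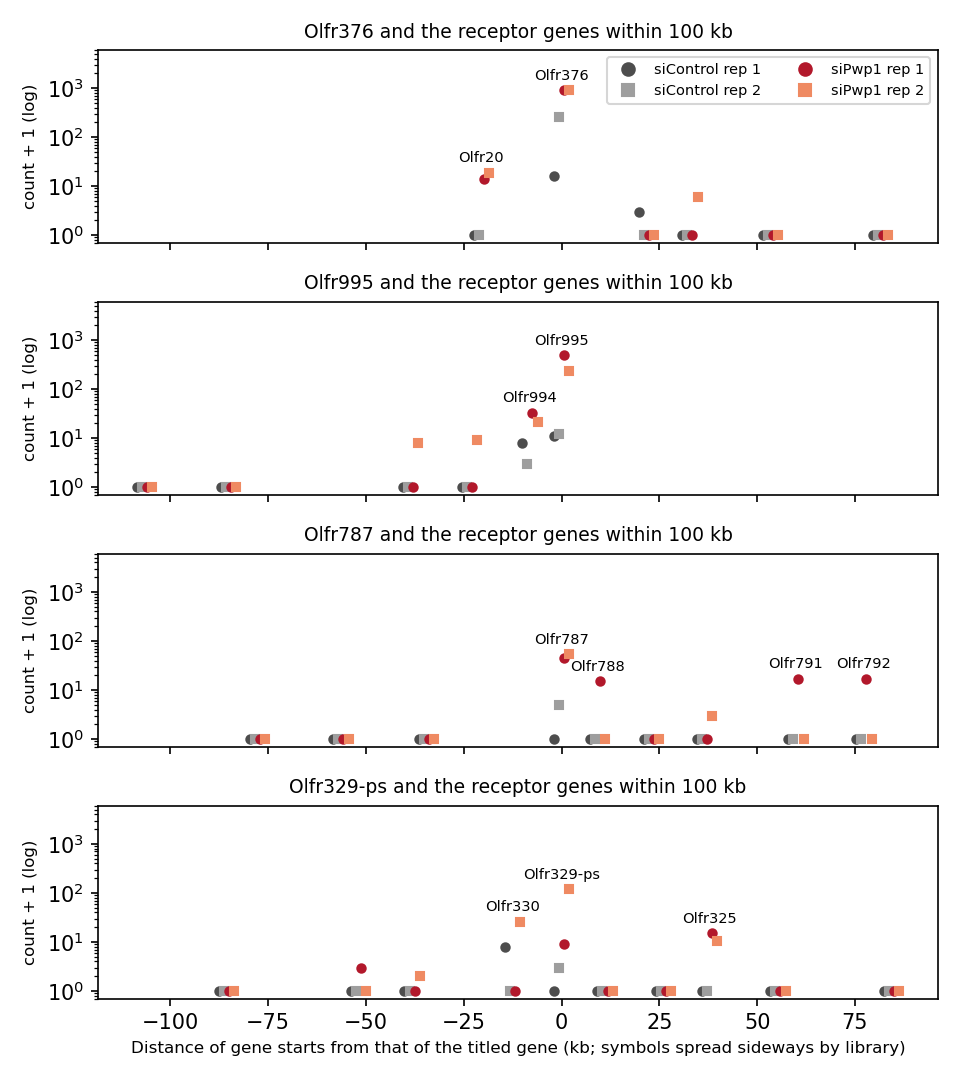
Expected count plus 1 (vertical axes, log scale) of receptor genes within 100 kb of Olfr376, Olfr995, Olfr787 and Olfr329-ps, by distance between gene starts in kb (horizontal axis), with 1 symbol per library spread slightly sideways. Genes that reached 10 counts are named; most of the others lie at a count of 0, drawn at 1.

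Close copies were about as frequent among members as among other receptor genes. The nearest copy of a member was 92.5% identical at the median, and that of the other receptor genes 91.2%. An identity of 95% or more to another receptor gene was found for 20 of all 67 members (29.9%), of which 65 had an aligned copy. It was found for 413 of the 1346 other receptor genes that had an aligned copy (30.7%). Olfr815 and Olfr814 were 97.7% identical, and Olfr814 had 2 counts in siPwp1 replicate 2 and 0 in the other libraries. Levels of genes with such copies are uncertain gene by gene.

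Some members share exon sequence with transcripts of other kinds. An exon overlapped a gene that is no receptor gene for 10 of 67 members (14.9%), against 53 of 1381 other receptor genes (3.84%). Among them are Olfr20, whose exon overlaps the readthrough gene Gm49340 on the same strand, Vmn1r88, which overlaps Gm4879, Vmn2r29, which overlaps Gm45844, and Vmn2r-ps11, which overlaps Gm26939. The strand setting of the counting is not given in the sources used here, and reads of these members cannot be told apart from reads of the overlapping gene. Vmn1r42 shares exon sequence with its family neighbour Vmn1r43 in the same way. Olfr376, Olfr995, Vmn2r94, Olfr787, Olfr118 and Olfr450 have no such overlap.

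The region before the annotated start was examined for 54 members with a RefSeq entry, giving 56 windows from 250 bases before to 50 after the start. The annotated start was itself an ATG in 34 of them (60.7%), against 5.83% of all 32851 windows, so for these the window lies next to the coding sequence. The motifs searched, on both strands, were the TATA box TATAAA, the core TAATTA that homeodomain factors recognise, and the core CCCNNGGG that Ebf factors recognise. TATAAA was in 35.7% of the member windows, 39.5% of all receptor windows and 13.6% of all windows. TAATTA was in 28.6%, 16.6% and 5.29%, and CCCNNGGG in 8.93%, 4.17% and 13.7%, in the same order. These matches are descriptions of the letters in the window. The window of Olfr20 is shown because it belongs to a gene at 0 in both siControl libraries, has a RefSeq start that is no ATG, and lies in an intron of Gm49340. The part shown is chr11:73350609-73350782 on the plus strand of GRCm38.p6. The RefSeq window was cut there because the GENCODE M21 start of Olfr20, at 73350783, lies upstream of the RefSeq start. The stretch ends 1 base before the GENCODE start and has a TAATTA, in capitals, 35 bases before the GENCODE start.
Olfr20 upstream window: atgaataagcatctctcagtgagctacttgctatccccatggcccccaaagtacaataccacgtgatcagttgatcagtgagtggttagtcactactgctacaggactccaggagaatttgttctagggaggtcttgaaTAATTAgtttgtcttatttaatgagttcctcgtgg

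Genes that serve these receptors in sensory neurons were examined as lists. Of 20 genes of receptor trafficking and olfactory signalling, 16 reached 10 counts in at least 1 library and 11 were tested. None passed the adjusted edgeR test, and their median log2 fold change was 0.04. At an unadjusted edgeR p under 0.05, 1 was higher and 0 were lower, against 1.84% and 0.824% of all genes tested. The levels were carried by genes of general function: Gnas, a stimulatory G protein subunit, had 164 and 172 TPM in siControl and 160.2 and 139 TPM in siPwp1. Cnep1r1, a regulatory subunit of a nuclear envelope phosphatase, had 63.1 and 86.7 TPM in siControl and 60.2 and 166 TPM in siPwp1. Gnb1, a G protein beta subunit, had 63.8 and 71.7 TPM, then 57.7 and 56.7 TPM. Slc12a2, a chloride cotransporter, had 29.6 and 51.9 TPM, then 44.5 and 59.5 TPM. In TPM the siPwp1 libraries of Gnas and Gnb1 lay below both siControl libraries by a small margin, and the other pair overlapped. In CPM Gnas overlapped too, with 209 and 211 in siControl and 214 and 176 in siPwp1. By CPM, 11.5% of the 15321 genes with 10 counts in at least 1 library were lower in both siPwp1 libraries. Among genes closer to olfactory neurons, Gnal, the G protein alpha subunit of olfactory neurons, had 32.7 and 21.6 CPM in the siControl libraries and 18.3 and 14.97 CPM in the siPwp1 libraries, and others were near the floor. Gng13, the gamma subunit of olfactory neurons, had 1, 0, 0 and 0 counts in siControl replicates 1 and 2 and siPwp1 replicates 1 and 2, and Cnga2, a subunit of the olfactory cyclic nucleotide-gated channel, had 2, 0, 0 and 4. Ano2, the olfactory calcium-activated chloride channel, had 25 and 20 counts in siControl and 136 and 78 in siPwp1, with a log2 fold change of 2.002 (SE 0.75) and an adjusted edgeR p of 0.9998.

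Among genes of vomeronasal signalling, Trpc2 and Gng8 were low, while Gnai2 was not. Of 8 listed, 4 reached 10 counts and 3 were tested; none had an unadjusted edgeR p under 0.05, and the median log2 fold change was 0.11. Gnai2, the G protein subunit of Vmn1r neurons, had 18.2 and 15.5 TPM in siControl and 15.9 and 21.2 TPM in siPwp1. Ano1, a chloride channel, had 44 and 5 counts in siControl and 85 and 30 in siPwp1, and Gng8, a gamma subunit, had 3 counts in siControl replicate 2 alone. Trpc2, the transduction channel of vomeronasal neurons, had 7 and 0 counts in siControl and 0 and 2 in siPwp1.

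Of 18 transcription and chromatin factors of olfactory receptor choice, 16 reached 10 counts and 14 were tested. No gene of the list passed the adjusted edgeR test, and the median log2 fold change was 0.01. At an unadjusted edgeR p under 0.05, 3 were higher, against 1.84% of all genes tested. The heterochromatin protein genes Cbx3 and Cbx1 had 271 and 275 TPM and 91.2 and 33.7 TPM in siControl, and 182 and 253 TPM and 63.2 and 32.1 TPM in siPwp1. Lbr had 114 and 111 TPM in siControl and 89.2 and 107 TPM in siPwp1. Kdm1a, a histone demethylase, had 27.4 and 23.1 TPM, then 26.1 and 22.5 TPM. The log2 fold changes of these 4 genes ranged from −0.43 to −0.07. Lbr encodes the lamin B receptor, whose loss from the nuclear envelope accompanies receptor gene clustering in neurons. Ebf1, a transcription factor of olfactory neurons among other lineages, was named after its values were seen. It had 17 and 15 counts in siControl and 406 and 132 in siPwp1, a log2 fold change of 3.75 (SE 0.67, edgeR adjusted p = 0.689). The DESeq2 adjusted p of Ebf1 was 0.000163, and DESeq2 called 0.309% of all genes tested higher. The other 2 genes of the list with an unadjusted edgeR p under 0.05 were Bptf, with a log2 fold change of 0.64 (SE 0.26), and Ddit3, with 1.27 (SE 0.51).

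Chemoreceptors of other families were also scarce. Of 26 genes listed, 25 were in the files, 14 of those were at 0 in all 4 libraries and 4 reached 10 counts. Their summed level was 0.207 to 0.333 CPM in siControl and 1.84 to 1.97 CPM in siPwp1. The single gene tested was Tas1r1, a subunit of the umami taste receptor, with 0 and 12 counts in siControl and 60 and 13 in siPwp1. Fpr3, a formyl peptide receptor, had 6 and 2 counts in siControl and 6 and 17 in siPwp1. Of the trace amine receptors, Taar4 had 13 counts in siPwp1 replicate 2 alone, and Taar8b had 8 and 4 counts in the siPwp1 replicates and 0 in siControl. The list was low in all libraries and its sum did not overlap between groups, which was not tested.

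Markers of other cell types were measured beside these results. Of 10 markers of olfactory neurons and epithelium, Gap43, Stmn2, Ncam1 and Bpifb9a were at 0 in all libraries, and 5 reached 10 counts. Their summed level, mostly Gnal, was 23.0 to 34.3 CPM in siControl and 16.1 to 20.5 CPM in siPwp1. Omp, the marker of mature olfactory neurons, had 6 and 0 counts in siControl and 29 and 0 in siPwp1. The 4 vomeronasal markers summed to 4.11 to 6.59 CPM in siControl and 4.61 to 4.84 CPM in siPwp1. Of 7 sperm markers 3 reached 10 counts, with sums of 0 to 1.21 CPM in siControl and 0.231 to 1.07 CPM in siPwp1. In each of these 3 lists the siPwp1 libraries were not both above the siControl libraries.

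Cumulus and blood marker sums, each mostly from a single gene, were higher in both siPwp1 libraries than in both siControl libraries. Of 11 cumulus cell markers 4 reached 10 counts and Inhba, Cyp19a1 and Ptx3 were at 0 in all libraries. Their sum, mostly Amhr2, was 7.56 to 11.4 CPM in siControl and 12.7 to 19.995 CPM in siPwp1. Of 9 blood markers 6 reached 10 counts and Hbb-bs, Hbb-bt and Tyrobp were at 0. Their sum, mostly the alpha globin gene Hba-a2, was 12.6 to 34.0 CPM in siControl and 44.8 to 45.8 CPM in siPwp1. Whether such cells were present, and any part of them in the receptor counts, was not tested.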

How the data were processed

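RNA of 4 libraries of 10 morulae was sequenced, 2 siControl and 2 siPwp1. The deposited files hold, per the file headers, the RSEM expected counts of each gene, not normalized, and TPM that the authors scaled within each library. The authors' FPKM were not used. The submitters' processing notes name STAR 2.7.10, RSEM 1.3.3 and mm10; which annotation release and strand setting were used is not given in the sources used here. RSEM divides reads among similar copies, which makes levels of close relatives uncertain.

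After rounding to whole numbers, the expected counts were tested over the whole gene table with edgeR 4.0.16 (R 4.3.3; filterByExpr, TMM, quasi-likelihood F test, group as the term), two-sided, with Benjamini-Hochberg adjustment over 13585 genes and a threshold of 0.05. Each SE was obtained by dividing the size of the log2 fold change by the root of F. CPM is the expected count over the library total. DESeq2 1.42.0, limma 3.58.1 on log2(TPM + 1), other filters and scalings, a replicate block and leaving out each library were alternatives. Coordinates and coding sequences are from GENCODE M21, promoter windows from RefSeq (GRCm38.p6), and copies were aligned with blastn 2.17.0.

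Members and lists were chosen with earlier results of these data known. Genes given in every library were the 10 members of highest mean TPM, and up to 8 higher and 8 lower with groups not overlapping and the smallest p. Also given were the 5 most carried by 1 library among members with a mean TMM-scaled CPM at or above the median of the members. The rest were 3 on each side of the count limit, up to 4 of each pathway list by mean TPM, and Pwp1. A gene that this rule names is not reported here. Other genes were named after their values were seen.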

Additional observations from a re-analysis of the deposited data

How the results depend on the processing

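The number of members depended on the count limit: 67 at 10 counts became 186 at 5 counts, 27 at 20 counts, 20 when 2 libraries had to reach 10 counts, and 44 after scaling to the smallest library. Leaving out each library in turn gave 43 to 63 members, the fewest without siPwp1 replicate 1. The number of members called higher was 0 in the edgeR test, 4 with no filter on low counts and 2 with the DESeq2 Wald test. Over all genes tested in these settings, 0 of 13585, 99 of 18613 and 42 of 13585 were called higher, respectively. With limma (7 members left), the size factors of DESeq2, or a filter of 5 CPM (2 members left), no member and no other gene was called higher. The number of members called also changed when single libraries were left out, which leaves 1 library in a group. No member was called lower under any of these. Each fit has few residual degrees of freedom. The prior that edgeR estimated for the spread was 4.839 degrees of freedom in the main test, 23.66 without siControl replicate 2 and infinite without either siPwp1 library or without the filter; the cause of the differing calls was not tested. Where 1 library was left in a group, its spread was taken from the other group. Without the filter the members called were Olfr995, Olfr376, Vmn2r94 and Olfr329-ps. The log2 fold change of Olfr376 was 2.86, from 1.999 without siControl replicate 1 to 5.51 without siControl replicate 2. That of Olfr787 was 4.63, from 3.79 to 8.57, and that of Olfr881 was 3.58, from 2.02 to 8.43; both highest values are without siControl replicate 2, which leaves siControl at 0, and are no bounds. The log2 fold change of Vmn1r88, 1.78, was −0.34 without siPwp1 replicate 2 and at most 3.72 when any other library was left out. The log2 ratio of the members' sums, 2.35, ranged from 1.96 to 2.90 when each library was left out, and was 1.79 over all Olfr and Vmn genes. Depth limits what can be said of the 40 members whose highest count was under 20.

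Replicate numbers are shared between groups, but no label says that they mark a common batch. Across genes, the difference between replicates 2 and 1 in siControl correlated with that in siPwp1 at r = 0.317. With the replicate block 3 members were called higher, Olfr995, Olfr376 and Vmn2r94, and 71 of all genes higher and 9 lower.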
